A study of Mus musculus with 6 samples.

Results

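The genes described here encode 10 secreted factors and receptors of blood and lymph vessel growth, chosen by name. They are the VEGF ligand genes Vegfa, Vegfb, Vegfc and Pgf, the angiopoietin genes Angpt1 and Angpt2, the angiopoietin-like genes Angptl2 and Angptl4, and the neuropilin genes Nrp1 and Nrp2. A probe set annotated to a single gene was found for 9 of the 10, and all 9 passed the filter on low values and were tested among 17020 genes. Angptl2 was not analysed here. Total RNA came from chondrocytes of the growth plate, the cartilage layer by which long bones grow, taken from mouse femurs and tibiae at postnatal day 30. The samples were 3 from mice with a conditional mutation of Lkb1 and 3 from control mice, all on a mixed background of FVB, 129S6 and C57CL/6, and each was hybridised to 1 Affymetrix array. Lkb1 (now Stk11) encodes a kinase upstream of AMPK and the SIK kinases. The Cre driver that made the mutation conditional, and the genotype of the controls, are not given in the labels. The replicates are called biological there, but whether each came from its own animal is not said, so p-values cover the spread among these samples, which may be technical in part.

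VEGF-A binds the receptors encoded by Flt1 and Kdr, while placental growth factor (Pgf) and VEGF-B bind the Flt1 product but not that of Kdr, and VEGF-C binds the receptor encoded by Flt4 as well. Neuropilins are co-receptors that bind VEGF ligands and, together with plexins, class 3 semaphorins. Angiopoietins act on the receptor encoded by Tek, where angiopoietin-1 is an agonist and angiopoietin-2 depends on context. In the growth plate, hypertrophic chondrocytes are a known source of VEGF-A, which draws vessels from the metaphysis into the cartilage, whereas cartilage above this front holds no vessels.

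Of the 10 genes, 7 had a promoter window in the RefSeq table of GRCm38.p6. The 250 bases before the first annotated start of Vegfa and of Nrp2 are shown because Vegfa encodes the central ligand and Nrp2 passed the test with all mutant arrays above background. Capitals mark GC boxes (GGGCGG) and the core of the hypoxia response element (ACGTG or GCGTG), searched on both strands. The region of Vegfa is chr17:46032378-46032627 (minus strand) and that of Nrp2 is chr1:62703067-62703316 (plus strand). For Pgf, 30 bases that hold both of its GC boxes are given, chr12:85177336-85177365 (minus strand).
Vegfa: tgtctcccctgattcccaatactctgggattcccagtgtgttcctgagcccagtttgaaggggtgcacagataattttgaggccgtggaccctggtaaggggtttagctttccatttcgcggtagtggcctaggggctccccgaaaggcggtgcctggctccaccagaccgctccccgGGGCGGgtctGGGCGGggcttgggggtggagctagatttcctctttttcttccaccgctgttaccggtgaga
Nrp2: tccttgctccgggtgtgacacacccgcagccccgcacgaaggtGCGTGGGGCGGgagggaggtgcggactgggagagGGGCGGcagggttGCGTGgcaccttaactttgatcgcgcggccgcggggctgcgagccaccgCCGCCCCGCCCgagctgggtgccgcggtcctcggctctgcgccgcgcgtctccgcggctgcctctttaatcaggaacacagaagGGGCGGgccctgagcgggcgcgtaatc
Pgf: gtGGGCGGgcaggctgcagccCCGCCCcat
The Vegfa region held 2 GC boxes, 72 and 62 bases before the start, and no hypoxia core within these 250 bases. The window of a second RefSeq start of Vegfa, which lies inside the annotated span of the gene, held 1 GC box and 2 hypoxia cores. The Nrp2 region held 5 GC boxes and 2 hypoxia cores, one of which abuts a GC box. The Nrp1 region held 1 of each, that of Vegfb 4 GC boxes and 2 cores, and that of Vegfc 2 GC boxes and no core. For Pgf, the window of 1 RefSeq start held 2 GC boxes and 1 core. The core lies 124 bases before that start and outside the bases shown. The window of a second RefSeq start of Pgf held neither motif. Both Pgf windows and that of Nrp1 lie inside the annotated spans of these genes. At least 1 GC box was present in 32.7% of all 32851 such upstream regions, and at least 1 hypoxia core in 38.6%. Of the bases shown, 59.2% in Vegfa and 72.4% in Nrp2 were G or C, and a match describes these letters only.

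Levels are log2(intensity + 1), where the intensities are those the authors deposited, and median intensities were 85.7 to 90.2 on mutant arrays and 82.4 to 90.5 on control arrays. Background was taken as the 95% point of 1035 probe sets of olfactory receptor genes on each array, 6.49 to 6.73 on mutant arrays and 6.40 to 6.65 on control arrays. Stk11 was at 7.39, 7.51 and 7.52 in the mutants and at 8.68, 9.08 and 9.67 in the controls (difference -1.67, limma adjusted p = 0.00387). The position of its probes relative to the deleted part was not analysed here. The chondrocyte genes of the labelled tissue were high in both groups: 8 of 8 markers exceeded background on all arrays, 0 of 8 passed the test, and Col2a1 was at 12.32 to 12.45 in mutants and 12.33 to 12.37 in controls. Bone marrow signal set the groups apart. Of 22 erythroid, neutrophil and B lymphoid genes tested, 20 fell, 3 exceeded background on all mutant arrays and 20 on all control arrays, and their summed intensity was 1518 to 2026 in mutants and 12835 to 31932 in controls. Their mean level was 6.08, 6.14 and 5.82 in mutant replicates 1, 2 and 3, and 8.56, 9.30 and 10.04 in control replicates 1, 2 and 3, so control replicate 1 held the least marrow signal of the controls. Among the controls, Stk11 was higher on arrays with more marrow signal. Against control replicate 1 alone the Stk11 difference was -1.21, and the part of marrow signal in it was not tested. In bulk samples, fewer cells of a type and less RNA per cell cannot be told apart.

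Pgf and Nrp2 rose in the mutants, by 1.55 and 1.61 on the log2 scale, and Angpt2 passed the test at a level within the background. Of the 9 genes tested, 3 were called higher and 0 lower at an adjusted p of 0.05, where 14.7% of all genes tested were called, 7.84% higher and 6.82% lower. The mutants did not overlap the controls for 7 of the 9, in each case with the mutants higher, against 36.7% of all genes tested in either direction, 20.0% with the mutants higher and 16.7% with the mutants lower. The median difference was 0.43 over the 9 genes and 0.03 over all genes tested, and the median absolute difference was 0.43 and 0.16. The members were chosen by family, with earlier results of these data known, so these counts describe the 9 genes only.

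**Figure D1:**
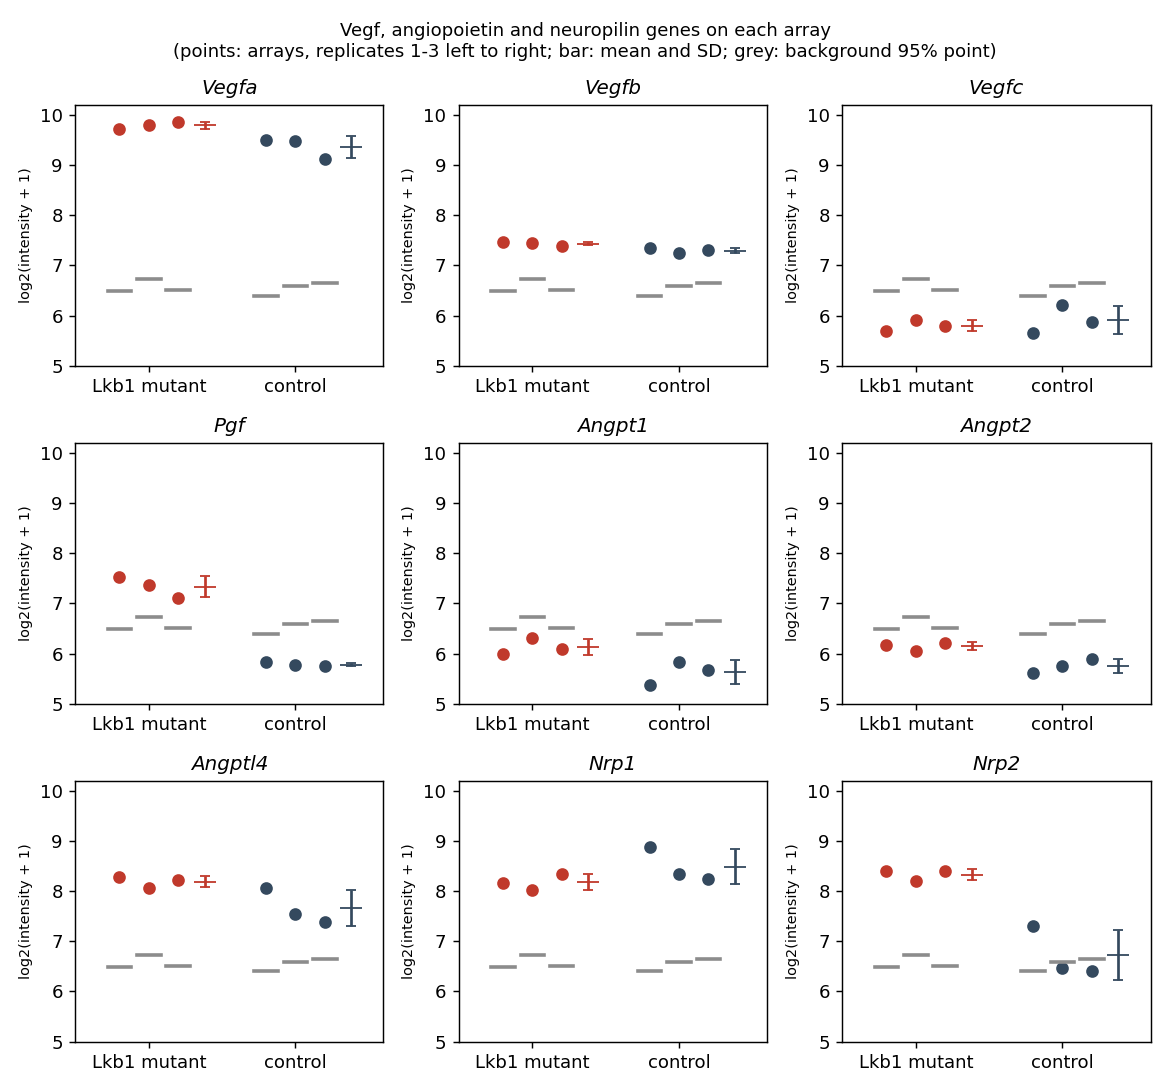
Level of each of the 9 tested genes as log2(intensity + 1), with 3 Lkb1 mutant arrays on the left and 3 control arrays on the right of each panel, replicates 1 to 3 from left to right. Bars give the mean and SD (n = 3 per group) and grey ticks the 95% point of olfactory receptor probe sets on that array; Vegfc, Angpt1 and Angpt2 lie below the ticks on all arrays, and Pgf lies above them in the mutants alone.

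Among the VEGF ligands, Pgf alone passed the test. Its level was 7.52, 7.36 and 7.11 in mutant replicates 1, 2 and 3, and 5.82, 5.77 and 5.75 in control replicates 1, 2 and 3. All mutant arrays exceeded the background and none of the control arrays did, so the control level is only a bound, and the mutant mean was at least 1.73-fold higher than the controls' mean background point. The measured means were 7.33 ± 0.20 in mutants and 5.78 ± 0.04 in controls (SD, n = 3 each), a difference of 1.55 (SE 0.12, 95% interval 1.28 to 1.82, limma adjusted p = 0.000485). Without control replicates 2 and 3 the Pgf difference was 1.51, again against a control below background. The part of marrow signal in the Pgf difference was not tested.

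Vegfa, the ligand that hypertrophic chondrocytes secrete, had no overlap between the groups, with the mutants higher, but did not pass the test. It was at 9.71, 9.80 and 9.85 in mutant replicates 1, 2 and 3, and at 9.49, 9.47 and 9.11 in control replicates 1, 2 and 3. The difference was 0.43 (SE 0.12, 95% interval 0.15 to 0.72), 1.35-fold, with a limma adjusted p of 0.054. The lowest control was the array with the most marrow signal, and without it the difference was 0.31 (adjusted p = 0.0574). Without control replicate 1 the adjusted p was 0.0362, which is a call. The part of marrow signal in this difference was not tested. Of 7 markers of hypertrophic chondrocytes tested, 6 fell and 0 rose, with a median difference of -0.87, and Col10a1, the collagen of this zone, was at 11.63 to 11.74 in mutants and 12.07 to 12.24 in controls (difference -0.50, adjusted p = 0.0114, and up to 0.0546 without mutant replicate 1 or 2).

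Vegfb, which encodes a ligand of the Flt1 receptor linked to fatty acid uptake in muscle, differed little. Its level was 7.46, 7.44 and 7.40 in the mutants, and 7.34, 7.25 and 7.30 in the controls. These groups did not overlap, yet the difference was 0.14 (SE 0.08, 95% interval -0.05 to 0.33, adjusted p = 0.314). Vegfc, the lymphatic ligand, was below background on all 6 arrays, at 5.69, 5.92 and 5.79 in mutants and 5.65, 6.21 and 5.87 in controls. Its groups overlapped, and the difference of -0.11 (adjusted p = 0.684) was 0.04 without control replicate 2.

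Genes whose levels followed that of Vegfa most closely over the 6 arrays were Pygo1 (Pearson r = 0.999), Zcchc14 (0.997), Zfp703 (0.996), Gpr107 (0.996) and Mon2 (0.995). These coefficients rest on 6 arrays in 2 groups, and 1243 genes had an r above 0.9 with Vegfa, so they only describe a pattern of mutants above controls with control replicate 3 lowest. Pygo1 was at 7.43, 7.54 and 7.59 in mutants and at 7.26, 7.23 and 6.92 in controls.

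Both angiopoietin genes were below the background point on all 6 arrays, so no fold is given. Angpt1, the agonist of the Tek receptor made by perivascular and mesenchymal cells, was at 5.98, 6.30 and 6.09 in mutants and at 5.38, 5.84 and 5.67 in controls. The groups did not overlap, with a difference of 0.49 (SE 0.14, adjusted p = 0.0574). Angpt2, which endothelial cells store and release during vessel remodelling, was at 6.17, 6.05 and 6.21 in mutants and at 5.62, 5.76 and 5.88 in controls. Its difference of 0.39 (SE 0.10) passed with a limma adjusted p of 0.042. That call ended without any 1 of the mutant replicates and without control replicate 1 or 2, with adjusted p of up to 0.166. With the replicate number as a block, Angpt2 had an adjusted p of 0.0674 and Angpt1 one of 0.0301.

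Angptl4, which encodes a secreted inhibitor of lipoprotein lipase and is a known target of PPAR and hypoxia signalling, was above background on all arrays. Its level was 8.28, 8.07 and 8.23 in mutant replicates 1, 2 and 3, and 8.05, 7.55 and 7.38 in control replicates 1, 2 and 3. The groups are separated by a narrow gap between mutant replicate 2 and control replicate 1, and the difference of 0.53 (SE 0.17, 95% interval 0.13 to 0.93) did not pass (adjusted p = 0.085). Among the controls, the Angptl4 level was lower on arrays with more marrow signal. Against control replicate 1 alone, the control with the least marrow signal, the difference was 0.14, and without that control it was 0.73 (adjusted p = 0.00532).

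Of the 2 neuropilin genes, Nrp2 rose and Nrp1 did not pass the test. Nrp2, the co-receptor of lymphatic and venous endothelium that also occurs in mesenchymal cells, was at 8.39, 8.20 and 8.39 in mutant replicates 1, 2 and 3, and at 7.30, 6.46 and 6.42 in control replicates 1, 2 and 3. All mutant arrays exceeded background and 1 of 3 control arrays did, so the size of the difference rests in part on control levels within the background. The measured difference was 1.61 (SE 0.23, 95% interval 1.08 to 2.13), with a limma adjusted p of 0.00463, and the call held without each array in turn (adjusted p up to 0.0279). Control replicate 1, the only control above background, was also the one with the least marrow signal, and against it alone the difference was 1.03. Nrp1, the co-receptor of arterial endothelium and of VEGF-A, was at 8.17, 8.03 and 8.34 in mutants and at 8.88, 8.34 and 8.24 in controls. These groups overlapped and the difference of -0.31 (SE 0.18, 95% interval -0.72 to 0.10) did not pass (adjusted p = 0.296). The Nrp1 difference rests largely on control replicate 1: it was -0.11 without that array (adjusted p = 0.565), and -0.70 against that array alone (adjusted p = 0.0382, with the lone control assumed to vary like the mutants).

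The within-array difference of Nrp2 minus Nrp1 was 0.23, 0.17 and 0.05 in mutants and -1.58, -1.88 and -1.82 in controls, where Nrp2 was below background in replicates 2 and 3. Its change of 1.91 had a two-sided p of 0.1 by exact permutation, the smallest that 3 against 3 arrays allow. The Nrp2 levels alone did not overlap between the groups, so this p is not separate support.

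**Figure D2:**
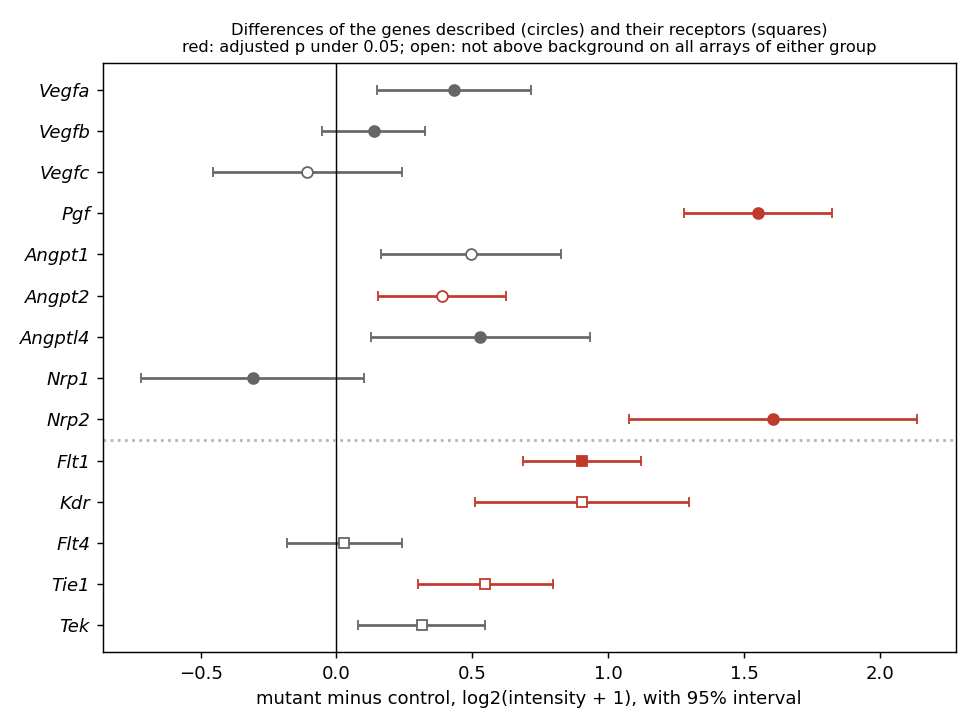
Mutant minus control difference in log2(intensity + 1) with its 95% interval from limma, for the 9 genes (circles) and 5 VEGF and TIE receptor genes (squares). Red marks an adjusted p under 0.05, and open symbols mark genes that did not exceed background on all arrays of either group; Pgf and Nrp2 lie furthest to the right, at 1.55 and 1.61.

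**Figure D3:**
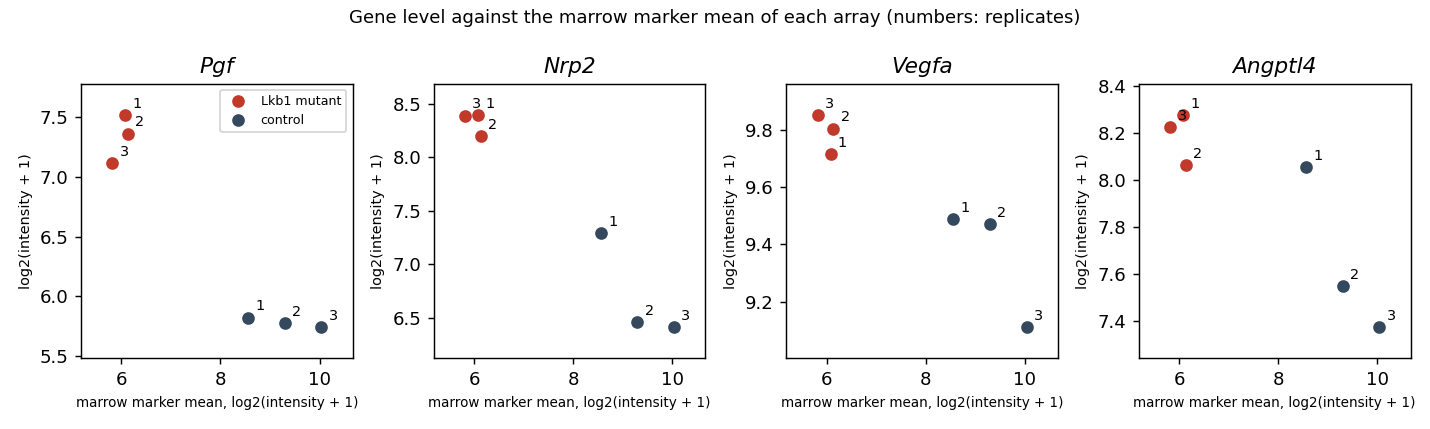
Level of Pgf, Nrp2, Vegfa and Angptl4 in log2(intensity + 1) against the mean level of 22 marrow marker genes on the same array, with replicate numbers beside the points. The mutants lie at marrow means of 5.82 to 6.14 and the controls at 8.56 to 10.04; Pgf is below background in all controls and Nrp2 in control replicates 2 and 3, and Angptl4 is highest in control replicate 1 among the controls.

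The other genes of these pathways were taken from 11 lists with 81 genes, of which 77 were tested, 28 rose and 3 fell, with a median difference of 0.20. Over all genes tested, 7.84% were called higher and 6.82% lower, with a median difference of 0.03. The pathway and marker lists were chosen with earlier results of these data known, so their counts describe the listed genes only. Of the 5 receptor genes of the VEGF and angiopoietin ligands, 3 rose and 0 fell. Flt1, the receptor of Pgf, was at 7.24, 7.34 and 7.47 in mutants and at 6.46, 6.40 and 6.48 in controls, a difference of 0.90 (SE 0.09, adjusted p = 0.00137), and 1 control array exceeded background. Kdr, the main signalling receptor of VEGF-A, rose by 0.90 and Tie1, an orphan receptor related to Tek, by 0.55, though no control array and only 1 and 2 mutant arrays exceeded background. The Kdr call ended without mutant replicate 2 or 3 (adjusted p up to 0.0615), and that of Tie1 without either of these or control replicate 2 (up to 0.0775). Tek differed by 0.31 (adjusted p = 0.0806) and Flt4 by 0.03, both at background on all arrays.

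Markers of cell types were also compared, where 7.84% of all genes tested were called higher and 6.82% lower. Of 10 endothelial genes, 7 rose and 0 fell, with a median difference of 0.42, and their summed intensity was 2106 to 2432 in mutants and 1476 to 1606 in controls. Sox17 was at background on all arrays. Of 8 pericyte and smooth muscle genes, 6 rose and 1 fell, with a median of 0.83 and a summed intensity of 4150 to 4633 in mutants and 2671 to 3085 in controls. Of 8 fibrous tissue genes, 6 rose and 0 fell, with a median of 0.90 and a summed intensity of 14986 to 16559 in mutants and 6423 to 8002 in controls. All 7 macrophage genes rose, with a summed intensity of 2476 to 3539 in mutants and 1419 to 1708 in controls. Among 6 osteoblast and osteocyte genes tested, 1 rose and 1 fell. Their median difference was 0.07, and Col1a1, the gene that rose, differed by 1.91. Their summed intensity, in which bright genes weigh most, was 7486 to 8280 in mutants and 3838 to 4867 in controls. Among 6 osteoclast genes, 2 rose and 1 fell, with a summed intensity of 1689 to 1872 in mutants and 894 to 1068 in controls. The part of these cell types in the differences of Pgf, Nrp2 and the angiopoietins was not tested.

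Neuropilins also bind semaphorins, and 3 semaphorin genes rose. Of 7 class 3 semaphorin genes, 3 rose and 0 fell: Sema3c by 0.84, Sema3a by 0.83 and Sema3b by 0.78. Sema3a exceeded background on 1 of 3 mutant arrays and no control array, and Sema3b on 3 of 3 mutant and 2 of 3 control arrays. Sema3c, a guidance factor for neural crest and vessels, averaged 8.84 ± 0.17 in mutants (SD, n = 3), where the lowest array was at 8.66, and was at 8.25, 7.88 and 7.88 in controls (limma adjusted p = 0.00836). Of 5 plexin genes, the signalling partners of neuropilins, 2 rose and 0 fell. Plxna2 averaged 7.85 ± 0.24 in mutants and 6.72 ± 0.24 in controls (SD, n = 3 each), a difference of 1.12 (SE 0.16, limma adjusted p = 0.005), and Plxna3 rose by 0.57, with 2 and 1 of 3 control arrays above background. Leaving out mutant replicate 3 ended the calls of Sema3a (adjusted p = 0.0514) and Plxna3 (0.0897), as did control replicate 2 for Sema3a and mutant replicate 2 for Plxna3.

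Of 5 further ligand genes of these families, 2 rose and 0 fell. Angptl7, an angiopoietin-like gene known from cornea and connective tissue, was at 9.44, 9.53 and 10.14 in mutants and at 7.84, 8.01 and 7.97 in controls, a difference of 1.77 (SE 0.18, adjusted p = 0.00131). Angptl1 rose by 0.77, with a call that ended without mutant replicate 1 or 3 (adjusted p up to 0.0597). Of 7 genes for other partners of neuropilins and angiopoietin-like proteins, 2 rose and 2 fell. Lpl, the lipase that Angptl4 inhibits, rose by 0.77 with 2 of 3 control arrays above background, and Itgb1, the beta-1 integrin, by 0.39. Lilrb4a, an inhibitory receptor of myeloid cells, fell by 1.72, and Gipc1, an adaptor that binds the tail of Nrp1, fell by 0.34. Binding of the Lilrb4a product to angiopoietin-like proteins was not examined here. The part of marrow signal in the Lilrb4a fall was not tested. The calls of Lpl ended without mutant replicate 1 or 3, and those of Itgb1 and Gipc1 without each of the mutant replicates and without control replicate 2 (adjusted p up to 0.125).

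Vegfa and Angptl4 are known targets of hypoxia signalling, whose genes were also examined. Of 8 regulators of the hypoxia-inducible factors, 4 rose and 0 fell: Egln3 (0.97) and Egln1 (0.81), prolyl hydroxylases, Epas1 (0.47), which encodes HIF-2 alpha, and Arnt (0.33), the shared partner. Hif1a, which encodes HIF-1 alpha, was at 11.30 to 11.36 in mutants and at 11.02 to 11.25 in controls, a difference of 0.16 (adjusted p = 0.317). The calls of the 4 genes that rose all ended without mutant replicate 3 (adjusted p = 0.0522 for Egln1 and up to 0.136 for Epas1). Those of Egln3, Epas1 and Arnt also ended without mutant replicate 2, those of Egln3 and Arnt without mutant replicate 1 or control replicate 2, and that of Epas1 without control replicate 1 or 3. Of 14 hypoxia target genes other than those described above, 2 rose and 0 fell, with a median of 0.08: Ddit4, an inhibitor of mTOR, by 0.65, and Car9, a carbonic anhydrase, by 0.82. Car9 exceeded background only in mutant replicate 1, at 7.13, against 6.28 and 6.30 in mutant replicates 2 and 3 and 5.67 to 5.85 in controls, and its difference was 0.54 without that array. The Car9 call ended without each array but mutant replicate 1 (adjusted p up to 0.108). Of 6 PPAR target genes tested, Pdk4, a kinase that restrains pyruvate oxidation, rose by 1.08 (adjusted p = 0.00748) and 0 fell, with a median of -0.32 over the list.

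Inhibitors of vessel growth and proteases of the vascular front were also examined. Of 7 inhibitor genes tested, 5 rose and 0 fell, among them Thbs2 (2.76), a thrombospondin, Tnmd (2.38, with 1 of 3 control arrays above background), a tendon relative of chondromodulin, Serpinf1 (1.46), which encodes PEDF, and Timp3 (0.44), which blocks metalloproteinases and the binding of VEGF-A to its receptor. The Timp3 call ended without each array but control replicate 1 (adjusted p up to 0.142). Cnmd, chondromodulin itself, averaged 12.17 ± 0.01 in mutants and 12.07 ± 0.07 in controls (SD, n = 3 each), a difference of 0.10 (limma adjusted p = 0.48). Thbs1 differed by 0.12 and did not pass either. The fibrous tissue genes above had a median difference of 0.90, and their part in the rises of the inhibitor genes was not tested. Of 5 protease genes, Mmp13 (2.23) and Mmp14 (1.52) rose and 0 fell. Mmp9, the gelatinase that releases VEGF-A from cartilage matrix and that neutrophils also hold, was at 8.56 to 8.69 in mutants and at 8.96 to 10.34 in controls, highest in control replicate 3 (difference -1.04, adjusted p = 0.0594). Without control replicate 1 the Mmp9 difference was -1.40 (adjusted p = 0.00282), and without control replicate 3 it was -0.70 (adjusted p = 0.0649). Against control replicate 1 alone, the control with the least marrow signal, it was -0.34. The part of marrow signal in the Mmp9 difference was not tested.

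Of 8 Notch and tip cell genes, 2 rose and 1 fell. Jag1, a Notch ligand, rose by 0.90, and Dll4, the ligand of tip cells, by 0.54 with all controls at background, so at least 1.11-fold higher. Unc5b, a netrin receptor found on tip cells, was at 7.66, 7.72 and 7.82 in mutants and at 9.08, 8.86 and 8.61 in controls, a fall of 1.11 on the log2 scale (adjusted p = 0.0022). Of the 30 genes named by rule in these lists, 16 kept their call without each array in turn and 14 lost it without at least 1. The number of called pathway genes was 16 without mutant replicate 3 and 20 without mutant replicate 2, against 31 with all arrays.

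**Figure D4:**
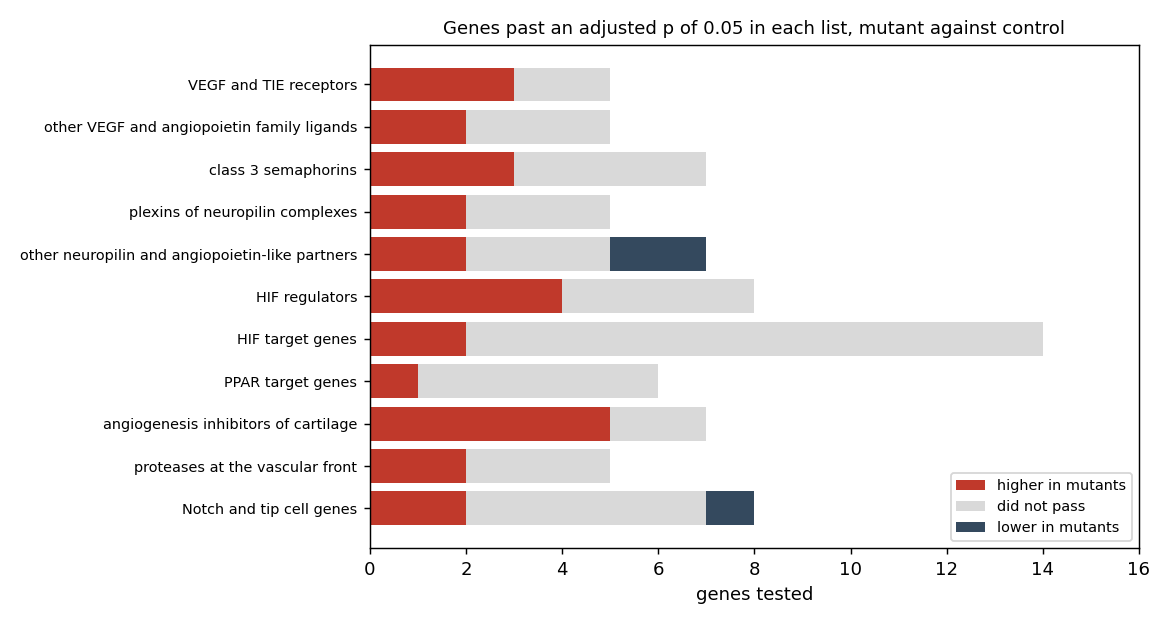
Number of genes tested in each of the 11 pathway lists that were higher in mutants (red), did not pass (light grey) or were lower in mutants (dark) at an adjusted p of 0.05. The lists of inhibitors of vessel growth (5 of 7) and of receptors (3 of 5) have the highest shares of risen genes, and lowered genes occur in 2 lists only.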

How the data were processed

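The intensities are those the authors deposited for 35512 probe sets on 6 arrays, on a linear scale from 0.74 to 9001. No source used here says how the probes were summarised or normalised. Per the labels' protocols, biotinylated cDNA was made from 300 ng of total RNA. Groups and replicate numbers came from the titles, and 0 value columns were left out. Gene symbols came from the platform annotation, with current symbols looked up by gene number in RefSeq's GRCm38.p6 table: 21789 had 1 gene, 1621 several and 12102 were not listed. Values were taken as log2(intensity + 1). The lowest 25% of probe sets by mean level (below 5.56) was left out, and of several per gene the one with the highest mean was kept. Each of the 9 members had 1 such probe set.

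The comparison used limma (version 3.58.1, R 4.3.3): a linear fit per gene with empirical Bayes variances, two-sided p adjusted over 17020 genes by Benjamini-Hochberg, and a call at 0.05. All adjusted p are from this test, which was also tested on simulated data. There, 32.2% of true log2 differences of 0.5 were called, 75.5% of those of 1 and 96.7% of those of 2. Each simulated run changed 200 genes, fewer than the 2496 called here, and gave both groups the same spread per gene. In the data, the SD in mutants and controls was 0.11 and 0.50 for Nrp2, and 0.20 and 0.04 for Pgf. These shares thus need not hold for these data. A gene with a difference near 0.5 that did not pass is not shown to be unchanged. The arrays' number limits the precision. The members and the gene lists were chosen with earlier results of these data known. The genes named are the members, up to 4 called genes with the largest change of each pathway list, and the 5 genes most like Vegfa; Tek, Flt4, Hif1a, Cnmd, Mmp9 and the markers named were picked after their values were seen. The alternatives were other normalisations, filters, variance models, array weights, a pseudocount of 16, a replicate block and leaving out arrays. The residuals of same-numbered samples correlated at 0.08, 0.21 and -0.08 for replicates 1, 2 and 3, so the numbers were not taken as pairs.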

Additional observations from a re-analysis of the deposited data

How the results depend on the processing

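Pgf and Nrp2 were called higher under all 17 alternatives, with differences of 1.33 to 1.66 for Pgf and 1.03 to 1.89 for Nrp2. Of the 9 genes, 3 were called in the fit of all arrays, and leaving out each array in turn gave 2 to 4. With array weights, whose estimation stopped before it converged, 8 were called, 7 higher and 1 lower, and 5 with control replicate 1 as the only control. Of the 77 pathway genes, 31 were called, 16 to 36 without each array in turn, 49 with array weights and 17 with control replicate 1 alone. Over all genes, 2496 were called, 8006 with array weights, and 936 to 3282 without each array in turn, with 1198, 1185 and 936 without mutant replicates 1, 2 and 3, 1329 without control replicate 2. The replicate block gave 2031 calls over all genes and 3 among the 9. The Vegfc difference changed sign to 0.0425 without control replicate 2 and to 0.15 with control replicate 1 alone, and lay between -0.2369 and 0.0425 without each array in turn. Without mutant replicate 1 the sign changed for Flt4 (-0.01) and Acan (0.0106), whose ranges without each array in turn were -0.01 to 0.0884 and -0.0488 to 0.0106. Vegfa passed in 5 of 17 alternatives, with adjusted p of 0.00247 to 0.184. The cause of these changes was not tested. Each member had 1 probe set, so averaging probe sets changed no member's difference, and another probe set of a member was not run. Vegfc, Angpt1 and Angpt2 were not above background, which limits what their differences can show.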
